A study of Mus musculus with 4 samples.

Results

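Mitochondrial folate metabolism and the glycine cleavage system were examined through 8 genes taken by name, Gldc, Amt, Gcsh, Shmt2, Mthfd2, Mthfd2l, Mthfd1l and Aldh1l2, out of 20807 autosomal protein-coding genes of the GENCODE vM21 annotation (mouse build GRCm38, also called mm10). For each gene the promoter (start site ±1 kb), the flanks from 1 to 3 kb upstream and downstream of the start site, and the gene body outside the promoter window were measured at CpGs with at least 5 reads in every library. All 8 genes had enough CpGs in all of these regions, and none was lost to the coverage filter.

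Whole-genome bisulfite sequencing (WGBS) read CpG methylation in the brains of 4 male mouse embryos at E11.5, in mid-gestation, 1 library for each group. The groups were Tet1 knockout (KO) and wild-type (WT) embryos whose dams ate excess folic acid (FA, 30 ppm), and KO and WT embryos whose dams ate the control level (3 ppm). All came from the 129S6.cg Tet1<tm1Koh> strain, in which a cassette placed at the start codon of Tet1 disrupts the dioxygenase that oxidises 5-methylcytosine. A short Tet1 isoform that starts downstream of the cassette may remain. The allele was made in C57BL/6 and moved to 129S6 by backcrossing, the dams were Tet1 heterozygous, and both diets contained the antibiotic succinylsulfathiazole. The comparisons ask what losing Tet1 does at these genes under each diet, what the 30 ppm diet changes within KO and within WT, and whether the genotype difference depends on diet. Each embryo came from a different litter, the KO embryos both had a neural tube defect while the WT pair looked normal, so genotype, phenotype and litter cannot be told apart here, nor can methylation within a cell type and the mix of cell types in a whole brain.

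In mitochondria, serine and glycine are broken down to one-carbon units that are carried on tetrahydrofolate (THF). SHMT2 moves a carbon from serine to THF, and the glycine cleavage system, made of the P protein (Gldc), the T protein (Amt), the H protein (Gcsh) and a shared dehydrogenase, moves a carbon from glycine. MTHFD2 and MTHFD2L oxidise the carbon, MTHFD1L releases it as formate for the cytosol, and ALDH1L2 oxidises it to carbon dioxide with the release of NADPH. Loss of Gldc, Amt or Mthfd1l is known to cause neural tube defects in mice.

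The libraries had a mean coverage between 13.2 and 21.2 reads per autosomal CpG, and the 3 ppm KO library was the deepest. Mean methylation of the 14907672 autosomal CpGs with 5 reads in all 4 libraries was 83.5% in KO against 81.4% in WT at 30 ppm, and 82.8% against 82.1% at 3 ppm. Incomplete conversion, read from mitochondrial CpGs as the percentage still methylated, lay between 0.914% and 0.938%. No oxidation step was described for these libraries, so methylated reads can include 5-hydroxymethylcytosine, the first oxidation product of 5-methylcytosine. The tables list CpGs of the reference genome and not the Tet1 cassette, so the genotype labels were not checked, nor could the tissue be checked against marker expression. With 1 library per group no value has an SD. The tests below are Fisher's exact tests unless another is named. These, two-sided and adjusted by Benjamini-Hochberg over all genes or tiles tested, compare pairs of libraries and not the conditions, and intervals cover counting error only. Reads over neighbouring CpGs can come from the same molecule and are not independent, and a p that misses the threshold does not show that values did not differ. A region was called hypermethylated (or hypomethylated) in KO when its adjusted p was under 0.05 and the libraries were 10 or more percentage points apart (here called points).

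The sequences below show stretches in which KO stood above WT at 4 genes: Amt, Gcsh and Aldh1l2, whose promoters were called hypermethylated in KO, and Mthfd2, whose promoter was called with the window at the principal start and at 30 ppm alone. Each is the stretch of 300 bases within 3 kb of the principal start (the start of the main coding transcript) with the highest KO minus WT averaged over both diets, among stretches with at least 5 measured CpGs and no untranslated region. Leaving out untranslated regions changed the choice at Aldh1l2, where the stretch from 541 to 840 bases past the start (6 CpGs) had larger differences, 44.5 points at 30 ppm and 49.1 at 3 ppm, than the one printed. The stretches were thus chosen by their values and are a description. All are written 5′ to 3′ on the strand of the gene, from GRCm38, with measured CpGs in capitals. Gcsh is chr8:116992307-116992606 (minus strand, first intron), Aldh1l2 is chr10:83533410-83533709 (minus strand, first intron), Amt is chr9:108297230-108297529 (plus strand, exonic in a transcript that retains an intron, and in the main transcript the end of an exon with the intron that follows it) and Mthfd2 is chr6:83316176-83316475 (minus strand, first intron, also inside the gene record Gm43890).
Gcsh: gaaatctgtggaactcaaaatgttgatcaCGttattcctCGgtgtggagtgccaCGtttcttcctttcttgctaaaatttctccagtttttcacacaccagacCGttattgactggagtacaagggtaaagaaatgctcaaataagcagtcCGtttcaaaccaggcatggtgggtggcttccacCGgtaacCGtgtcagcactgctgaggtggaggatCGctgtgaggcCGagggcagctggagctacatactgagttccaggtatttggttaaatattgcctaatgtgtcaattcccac
Aldh1l2: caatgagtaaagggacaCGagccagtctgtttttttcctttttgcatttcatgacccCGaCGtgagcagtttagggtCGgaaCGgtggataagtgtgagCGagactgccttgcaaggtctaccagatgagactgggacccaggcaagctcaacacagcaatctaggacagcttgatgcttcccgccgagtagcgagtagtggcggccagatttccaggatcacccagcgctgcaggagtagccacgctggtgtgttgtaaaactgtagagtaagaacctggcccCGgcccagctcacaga
Amt: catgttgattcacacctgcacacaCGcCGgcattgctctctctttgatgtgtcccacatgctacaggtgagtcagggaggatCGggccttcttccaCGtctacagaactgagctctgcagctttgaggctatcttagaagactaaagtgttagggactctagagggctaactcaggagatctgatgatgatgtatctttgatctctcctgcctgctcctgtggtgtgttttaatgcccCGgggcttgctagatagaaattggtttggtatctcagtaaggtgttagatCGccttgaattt
Mthfd2: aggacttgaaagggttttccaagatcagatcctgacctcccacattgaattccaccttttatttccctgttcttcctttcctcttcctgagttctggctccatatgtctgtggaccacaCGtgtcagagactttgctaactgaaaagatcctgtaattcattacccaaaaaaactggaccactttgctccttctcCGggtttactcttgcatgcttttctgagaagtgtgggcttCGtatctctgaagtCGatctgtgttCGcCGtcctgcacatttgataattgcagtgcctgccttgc

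In the Gcsh stretch, 931 to 1230 bases past the start, the 9 measured CpGs held 55.7% methylated reads in KO against 19.0% in WT at 30 ppm, and 54.5% against 25.9% at 3 ppm. All 9 were higher in KO than in WT at both diets. The CpG at base 104 was the most methylated of them in KO at 30 ppm, with 78.6% (14 reads) against 31.6% in WT, and it read 60.9% against 35.7% at 3 ppm. In the Aldh1l2 stretch, the 7 measured CpGs were almost unmethylated in WT, 1.72% at 30 ppm and 1.61% at 3 ppm, and held 30.2% and 28.2% in KO. The CpG at base 285, at the far end from the start site, read 40.0% in KO at 30 ppm and 59.4% in KO at 3 ppm, and no read was methylated there in either WT library (8 and 10 reads). In the Amt stretch, with 6 CpGs, KO held 68.6% and WT 45.8% at 30 ppm, and KO 70.1% and WT 29.9% at 3 ppm. The CpG at base 28 read 57.1% in KO against 8.33% in WT at 30 ppm, and 64.3% against 15.4% at 3 ppm, on 7 to 14 reads each. In the Mthfd2 stretch, 6 CpGs held 46.1% in KO against 16.3% in WT at 30 ppm, and 50.5% against 32.7% at 3 ppm.

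At promoters, 3 of the 8 genes, Amt, Gcsh and Aldh1l2, were hypermethylated in KO at 30 ppm, and the same 3 at 3 ppm. Over all 19924 promoters tested, 15.4% were hypermethylated in KO at 30 ppm and 16.6% at 3 ppm. The median KO minus WT of the 8 promoters came to 5.73 points at 30 ppm and 7.84 at 3 ppm, beside 3.93 and 3.31 points over all promoters. No promoter of the 8 was hypomethylated at either diet (0.331% and 0.381% of all promoters were). Both KO libraries lay above both WT libraries at 4 of the 8 promoters, Amt, Gcsh, Mthfd2 and Aldh1l2, which is near the 54.1% of all promoters with this order. By limma on the log2 odds of methylation in all 4 libraries, the only test whose spread comes from between libraries, Gcsh passed (adjusted p = 0.0287) and the other 7 did not, while 7.5% of all promoters passed.

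**Figure D1:**
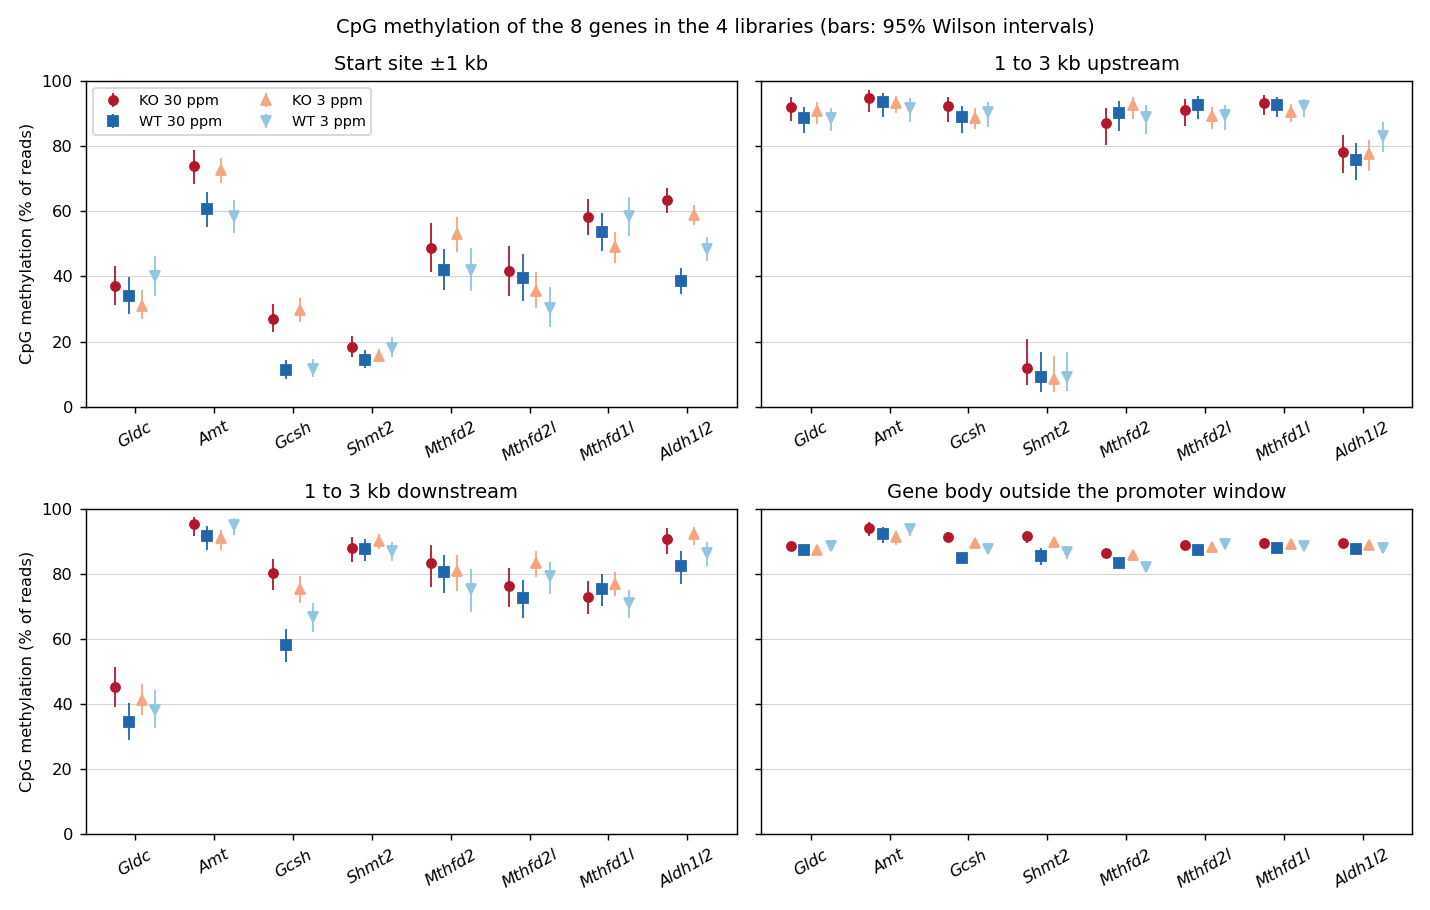
CpG methylation (y axis, % of reads) of each of the 8 genes (x axis) in the promoter, both flanks and the gene body, with 1 point per library and 95% Wilson intervals for counting error. The KO points stand above the WT points at the Amt, Gcsh and Aldh1l2 promoters and in the Gcsh downstream flank, and Shmt2 is the gene with low methylation in the upstream flank (8.57 to 12%).

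**Figure D2:**
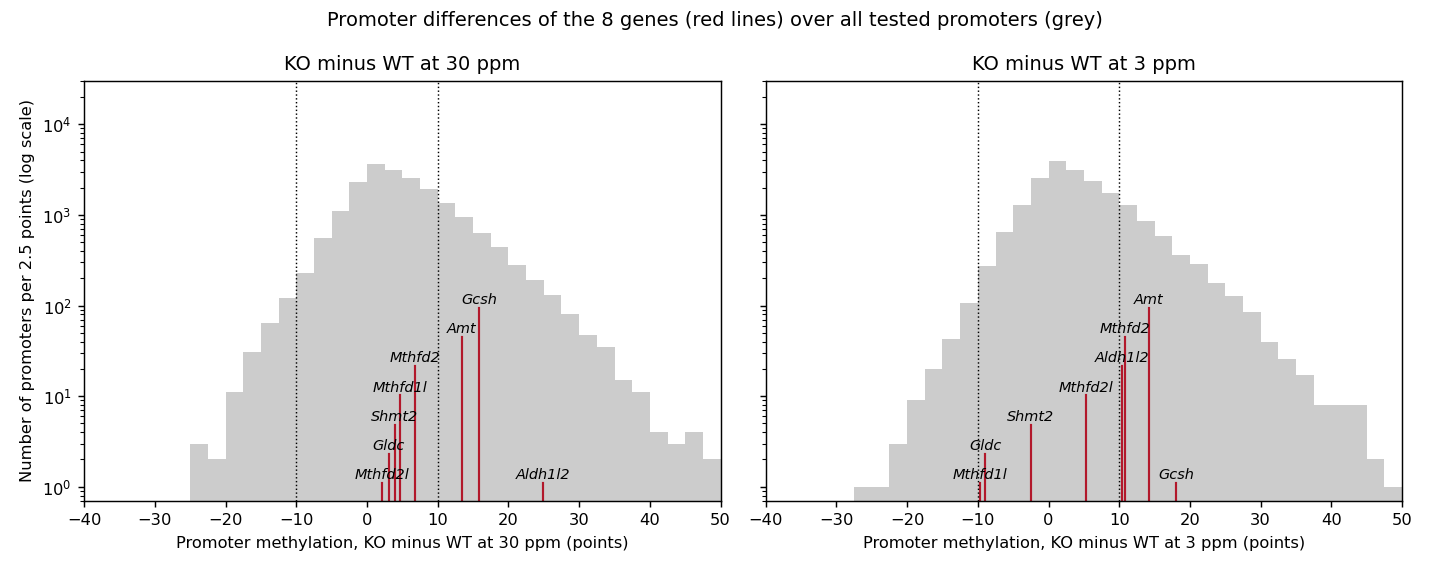
KO minus WT promoter methylation (x axis, points) of the 8 genes (red lines, whose height has no meaning) over the histogram of all tested promoters (grey, y axis on a log scale), with dotted lines at 10 points on either side of 0. Aldh1l2 at 30 ppm (24.9 points, above 98.3% of promoters) and Gcsh at 3 ppm (18.0 points, above 94.8%) stand highest. Mthfd1l and Gldc stand at the low end at 3 ppm, where neither was called and where their means of CpG levels differed less.

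Among the glycine cleavage genes, Gcsh showed the clearest gain. Gcsh encodes the H protein, the lipoylated carrier that shuttles the glycine carbon between the other subunits, and lies on the minus strand of chromosome 8 (116981810 to 116993537). Its promoter held 27.0% methylated reads in KO against 11.2% in WT under 30 ppm, and 29.6% against 11.6% under 3 ppm, over 42 CpGs and 403 to 621 reads. Both KO levels lay well above both WT levels at each diet. KO minus WT was 15.9 points at 30 ppm (95% Newcombe interval 10.7 to 21.1; adjusted p = 1.56e-07) and 18.0 points at 3 ppm (13.5 to 22.5; adjusted p = 3.89e-12). Of the 42 CpGs, 20 were higher in KO at both diets and none was lower at both. The log2 odds ratio of KO to WT over both diets was 1.61 with a standard error of 0.267 in limma. With CpGs of at least 10 reads only, it was 1.24 and missed the threshold (adjusted p = 0.0753).

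At Gcsh the higher KO levels lay in separate stretches. In the island at the start they lay at the CpGs between 75 and 187 bp past the start, on 5 to 12 reads per CpG, while its CpGs between 313 and 573 bp read 0 to 8.33% in KO but for one at 16.7% (6 reads), and its part upstream of the start was not measured. A second island (116992367 to 116992765), in the first intron, held higher KO levels on the downstream side. Past this island, the CpGs at 1439 and 1473 bp were also higher in KO at both diets. Those at 1231 and 1382 bp were higher in KO at 30 ppm and lower at 3 ppm. In the 1 kb tile that holds the start of the gene (116993001 to 116994000, 22 CpGs), no read of 223 was methylated in WT at 3 ppm, which allows a level of up to 1.35%, and WT at 30 ppm read 0.559%. KO read 18.1% at 3 ppm and 10.4% at 30 ppm in the same tile. The next tile into the first intron (116992001 to 116993000, 27 CpGs) rose from 17.7% in WT to 43.3% in KO at 30 ppm (adjusted p = 5.6e-11) and from 21.6% to 38.6% at 3 ppm (adjusted p = 6.18e-06), by Fisher's exact test over all tiles. The 35 island CpGs within 1 kb of the start were higher in KO by 19.1 points at 30 ppm and 18.3 at 3 ppm. Of the 7 other CpGs, those between -949 and -773 bp read 92.1% in KO against 92.3% in WT at 30 ppm. At 3 ppm they read 88.7% against 97.2%. Those between 675 and 745 bp read 0 to 17.6%. Pooled, the 7 differed by -3.02 and 13.7 points, though none was higher in KO at both diets. At 3 ppm the upstream CpGs gave 71 of the 127 KO reads and 36 of the 98 WT reads.

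The Gcsh downstream flank was the one flank of the 8 genes that was called with the start taken from the gene record. It held 80.4% in KO against 58.1% in WT at 30 ppm, so KO stood 22.3 points above WT (interval 15.1 to 29.0; adjusted p = 2.58e-07), and 75.5% against 66.7% at 3 ppm, where the difference of 8.71 points (adjusted p = 0.0468) was below the minimum of 10 points (above it as a mean of CpG levels, at 10.95 points). Of all downstream flanks, 12.4% were hypermethylated in KO at 30 ppm and 10.5% at 3 ppm. limma gave an adjusted p of 0.0912 for this flank over both diets.

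Amt encodes the T protein, the aminomethyltransferase that hands the glycine carbon to THF, and lies on the plus strand of chromosome 9 (108296853 to 108302302). Its promoter, with no CpG island at the start, held 74.1% in KO against 60.6% in WT at 30 ppm, and 72.7% in KO against 58.5% in WT at 3 ppm, over 26 CpGs and 266 to 480 reads. The 2 KO levels lay within 1.35 points of each other and the WT levels within 2.13 points. KO minus WT was 13.4 points at 30 ppm (5.77 to 20.8; adjusted p = 0.00649) and 14.2 points at 3 ppm (7.66 to 20.7; adjusted p = 0.000308), with limma at an adjusted p of 0.0841 (0.01 with a window of 2.5 kb on each side). Several settings ended these calls. Among CpGs with 10 or more reads in each library, KO exceeded WT by 8.03 and 4.12 points. A window of 2.5 kb on each side gave 8.77 and 6.18 points, and none of these was called. At 30 ppm the difference was also under 10 points as a mean of CpG levels (8.97) and with no coverage minimum (8.75). The largest gain in the window lay in the bin from 0 to 500 bp past the start (6 CpGs). It read 43.2% in KO against 20.9% in WT at 30 ppm and 53.9% against 20% at 3 ppm. The 500 bp before the start (4 CpGs) read between 13.6% and 19.6% in all 4 libraries. From -1000 to -500 bp KO was higher by 9.34 points at 30 ppm and 1.85 at 3 ppm. From 500 to 1000 bp it was higher by 5.94 and 6.16 points.

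Gldc encodes the P protein, the decarboxylase that binds glycine first, and lies on the minus strand of chromosome 19 (30098447 to 30175429). Its promoter read 37.0% in KO against 33.9% in WT at 30 ppm, and 31.1% in KO against 40.0% in WT at 3 ppm. Neither difference was called: 3.09 points at 30 ppm (interval -5.17 to 11.4; 1.48 to 6.27 points under other settings) and -8.93 points at 3 ppm (-16.5 to -1.41; adjusted p = 0.0734). At 3 ppm the mean of the CpG levels, which gives each CpG the same weight whatever its reads, differed by -0.403 points. None of the 53 CpGs of the island near the Gldc start was measured in all libraries. On its downstream side, 11 CpGs between 500 and 1000 bp read 0.617 to 2.44% in all 4 libraries, and the next 11 read 7.04 to 12.2%. The downstream flank read 45.2% in KO against 34.5% in WT at 30 ppm (10.8 points, adjusted p = 0.0815) and 41.3% against 38.3% at 3 ppm, and was not called, though with no coverage minimum it was called at 30 ppm (12.8 points, adjusted p = 0.0196).

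**Figure D3:**
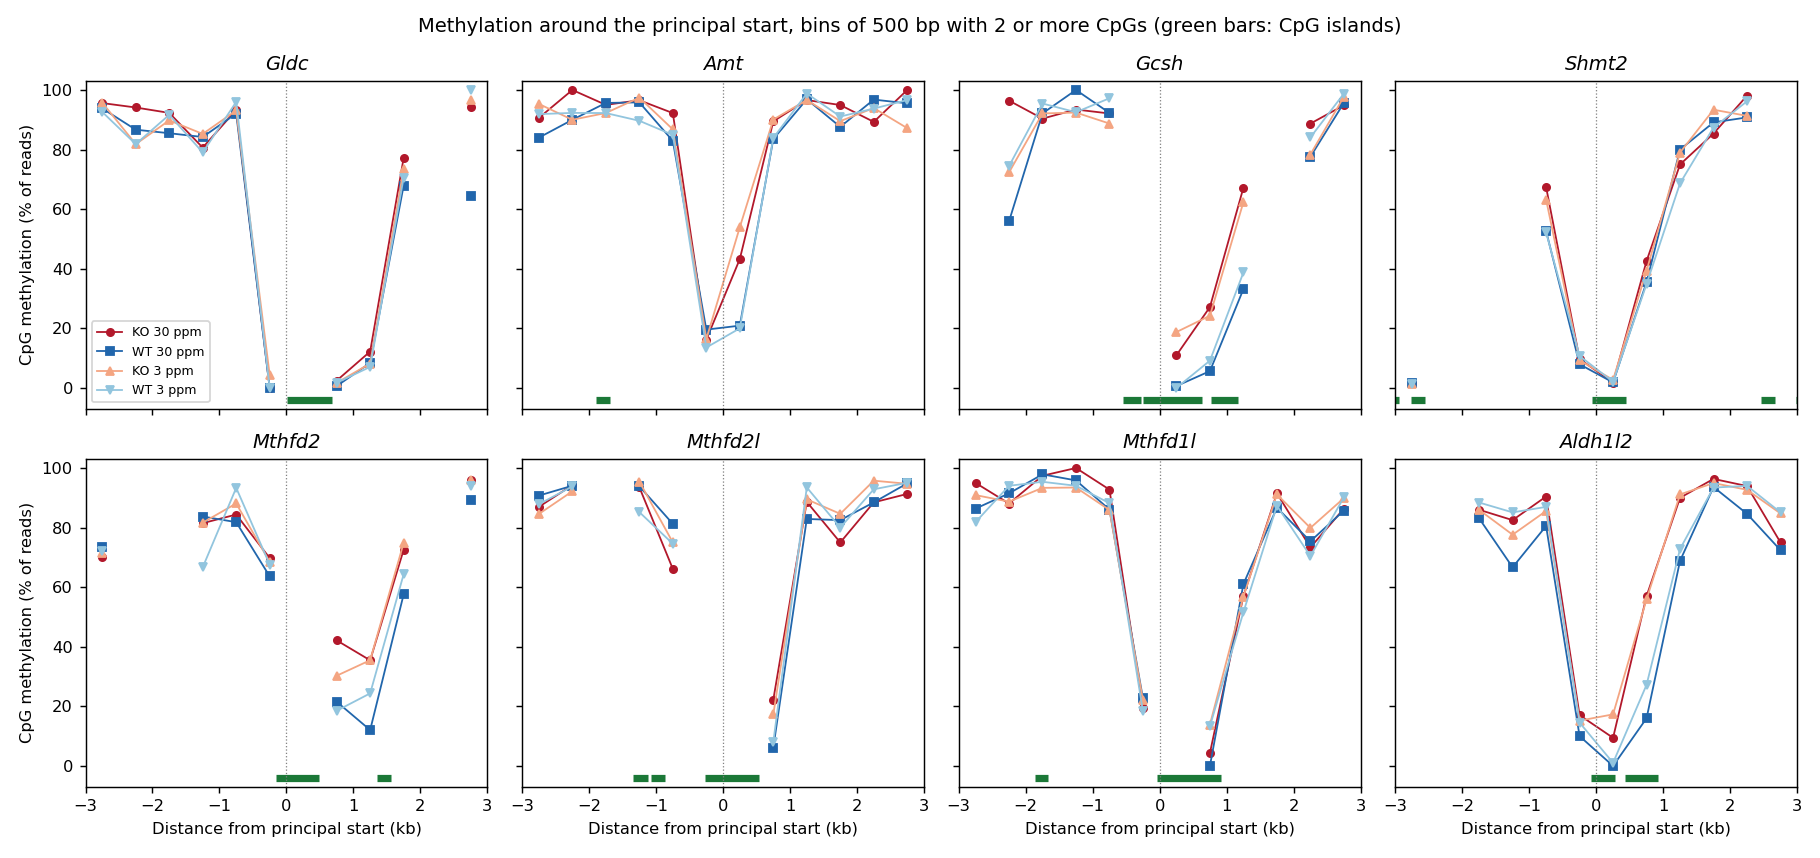
CpG methylation (y axis, % of reads) against distance from the principal start (x axis, kb) for each of the 8 genes in bins of 500 bp that hold at least 2 measured CpGs, with 1 line per library and green bars for CpG islands. In the bin from 500 to 1000 bp past the start, the KO lines stand above the WT lines at Amt, Gcsh, Shmt2, Mthfd2, Mthfd2l and Aldh1l2. No other bin has this order at as many genes. The 4 lines stay close together from 500 to 1500 bp at Gldc.

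Shmt2, whose product makes glycine from serine, lies on the minus strand of chromosome 10 (127517123 to 127522444). Its promoter was the best covered of the 8, with 45 of 50 CpGs measured, and the least methylated but for Gcsh in WT. It read 18.4% in KO against 14.4% in WT at 30 ppm, and 15.7% in KO against 18.2% in WT at 3 ppm, with differences of 3.96 points (interval -0.315 to 8.27) and -2.5 points (-6.24 to 1.06), neither called. At 30 ppm CpGs of at least 10 reads gave 8.25 points, under the minimum (adjusted p = 0.0219). The direction at 3 ppm turned with the weighting, to 2.80 points as a mean of CpG levels, and was -6.25 points with CpGs of at least 10 reads. The 24 CpGs of its island read between 1.31% and 2.1% in all 4 libraries, so no gain was detectable there at 286 to 697 reads a library. In the 21 other CpGs of the window, KO was 5.86 points above WT at 30 ppm and 5.35 points above at 3 ppm. At 3 ppm the island gave 697 of the 1167 KO reads and 286 of the 638 WT reads, so the pooled level depends on this division. The Shmt2 body read 91.6% in KO against 85.5% in WT at 30 ppm, the second largest body difference of the 8 genes at that diet (6.07 points, adjusted p = 0.000726). That difference was 2.89 points with CpGs of at least 10 reads (adjusted p = 0.54) and 10.03 points, above the minimum, with the body taken from 3 kb past the start.

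Mthfd2 and Mthfd2l encode mitochondrial dehydrogenases that oxidise 5,10-methylene-THF, Mthfd2 being the form that is high in embryos and dividing cells. Mthfd2 lies on the minus strand of chromosome 6 (83305691 to 83325908), and its record begins with a lone transcript 8302 bases upstream of the start of the main coding transcript, beside the start of Mob1a. At the record's start the promoter read 48.8% in KO against 41.9% in WT at 30 ppm, and 52.9% in KO against 42.1% in WT at 3 ppm, and neither difference was called (6.83 points, adjusted p = 0.381; 10.9 points, adjusted p = 0.0537). With no coverage minimum the 30 ppm difference turned to -0.792 points, and as a mean of CpG levels the 3 ppm difference was 5.82 points. At the principal start it read 55.1% in KO against 36.5% in WT at 30 ppm, so KO stood 18.6 points above WT (interval 9.28 to 27.6; adjusted p = 0.00135) and the promoter was called. It read 45.9% against 38.3% at 3 ppm, 7.67 points apart (-0.106 to 15.3; adjusted p = 0.159), and was not called there. With starts placed this way for all genes, 4 of the 8 promoters were hypermethylated in KO at 30 ppm and 3 at 3 ppm, beside 15.8% and 17% of all promoters.

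None of the 52 CpGs of the island at the principal start of Mthfd2 was measured. Past the island, the 11 CpGs from 500 to 1000 bp read 42.1% in KO against 21.6% in WT at 30 ppm and 30.3% against 18.5% at 3 ppm. The next 9 read 35.5% and 12% at 30 ppm and 35.5% against 24.4% at 3 ppm. Both bins had KO above WT at both diets. The flank downstream of the principal start (18 CpGs) read 57.6% and 45.7% at 30 ppm (adjusted p = 0.0617) and 58.3% against 47.7% at 3 ppm (10.6 points, adjusted p = 0.0425), and was called at 3 ppm alone.

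Mthfd2l lies on the plus strand of chromosome 5 (90931117 to 91021368). Its promoter read 41.6% in KO against 39.4% in WT at 30 ppm, and 35.7% in KO against 30.4% in WT at 3 ppm. The differences of 2.13 and 5.29 points (intervals -8.39 to 12.6 and -3.01 to 13.3) were not called. Only 14 of its 97 promoter CpGs were measured, the smallest share of the 8 genes (14.4%), and these had 154 to 300 reads. With CpGs of at least 10 reads the 30 ppm difference was 12.8 points and was not called (adjusted p = 0.234), and as a mean of CpG levels it was -1.31 points. At 3 ppm the same settings gave 2.49 and 1.97 points. Parts of the window went opposite ways. The CpGs at -911 and -901 bp, in an upstream island, were lower in KO at both diets, on 5 to 14 reads each. They read 60% and 66.7% in KO against 100% and 100% in WT at 30 ppm. At 3 ppm they read 91.7% and 64.3% against 100% and 75%. The CpGs from 497 to 508 bp, in the island at the start, read 0 to 4.76% in all 4 libraries. Pooled, these 5 island CpGs read 20% against 47.5% at 30 ppm, on 35 and 40 reads, and 25% against 17.4% at 3 ppm. These pooled levels depend on how the reads divided between the parts. Past the principal start, 9 CpGs from 500 to 1000 bp read 22.2% in KO against 6.15% in WT at 30 ppm and 17.3% against 8.02% at 3 ppm, with both KO libraries above both WT libraries.

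Mthfd1l, whose product releases formate to the cytosol, is the longest of the 8 genes and lies on the plus strand of chromosome 10 (3973118 to 4167081). Its promoter read 58.3% in KO against 53.7% in WT at 30 ppm, and 48.9% in KO against 58.6% in WT at 3 ppm. The differences of 4.62 points (interval -3.44 to 12.6) and -9.65 points (-17.3 to -1.83; adjusted p = 0.0587) were not called. With a window of 2.5 kb on each side the 30 ppm difference was -0.22 points. The 3 ppm KO library had the lowest level of the 4, and the mean of CpG levels differed by -1.63 points between KO and WT at that diet. With no coverage minimum the difference there was -10.1 points (adjusted p = 0.0294) and was called as a loss, as it was after thinning (-16.5 points), and with CpGs of at least 10 reads it was -0.775 points. The 2 measured CpGs of its 73-CpG island carried 13 to 22 reads in a library, too few for a level.

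Aldh1l2 had the largest promoter gain of the 8 genes at 30 ppm. It encodes the mitochondrial 10-formyl-THF dehydrogenase, which burns the one-carbon unit to carbon dioxide, and lies on the minus strand of chromosome 10 (83487450 to 83534140), 20.6 Mb from Tet1. Its promoter held 63.4% in KO against 38.6% in WT at 30 ppm, and 58.8% in KO against 48.4% in WT at 3 ppm, over 42 CpGs and 568 to 976 reads. KO minus WT was 24.9 points at 30 ppm (19.3 to 30.2; adjusted p = 3.57e-15) and 10.4 points at 3 ppm (5.55 to 15.2; adjusted p = 0.000324). At 3 ppm the call was close to its minimum and was lost, at 8.77 points with CpGs of at least 10 reads and 5.16 points with a window of 2.5 kb on each side. As means of CpG levels, KO exceeded WT by 18.0 points under 30 ppm and by 12.2 under 3 ppm, and with the window of 2.5 kb by 16.1 under 30 ppm. By limma over both diets the log2 odds ratio was 1.03 with a standard error of 0.313 (adjusted p = 0.0883), and with the window of 2.5 kb it passed (adjusted p = 0.014).

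KO minus WT at Aldh1l2 also differed between the diets, by a Wald test on the 2 log odds ratios (adjusted p = 0.0191, which 1.35% of all promoters and 1 of the 8 genes passed). The KO levels were 4.61 points apart between the diets, and 30 minus 3 ppm in WT was -9.86 points (adjusted p = 0.0508). With CpGs of at least 10 reads this WT difference was -14.8 points and was called (adjusted p = 0.0156). The 16 measured CpGs of its islands within 1 kb of the start read 52.5% in KO against 13.6% in WT at 30 ppm. At 3 ppm they read 50.3% against 19.6%, so in these CpGs KO was higher by 38.9 and 30.7 points. Of the island at the start (83533860 to 83534216), only the CpG at -75 bp was measured. It read 0% in all 4 libraries, on 5 to 8 reads. The others lay between 449 and 876 bp past the start, in a separate island (83533225 to 83533715). The 26 other CpGs of the window were higher by 15.7 and 5.57 points. None of the 524 measured CpGs in or within 3 kb of Aldh1l2 was at 80% or more in both libraries of one genotype and at 20% or less in both of the other, and none was at the other 7 genes. This looks only at the measured CpGs themselves, and the part of DNA sequence differences nearby that go with the Tet1 allele was not tested.

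**Figure D4:**
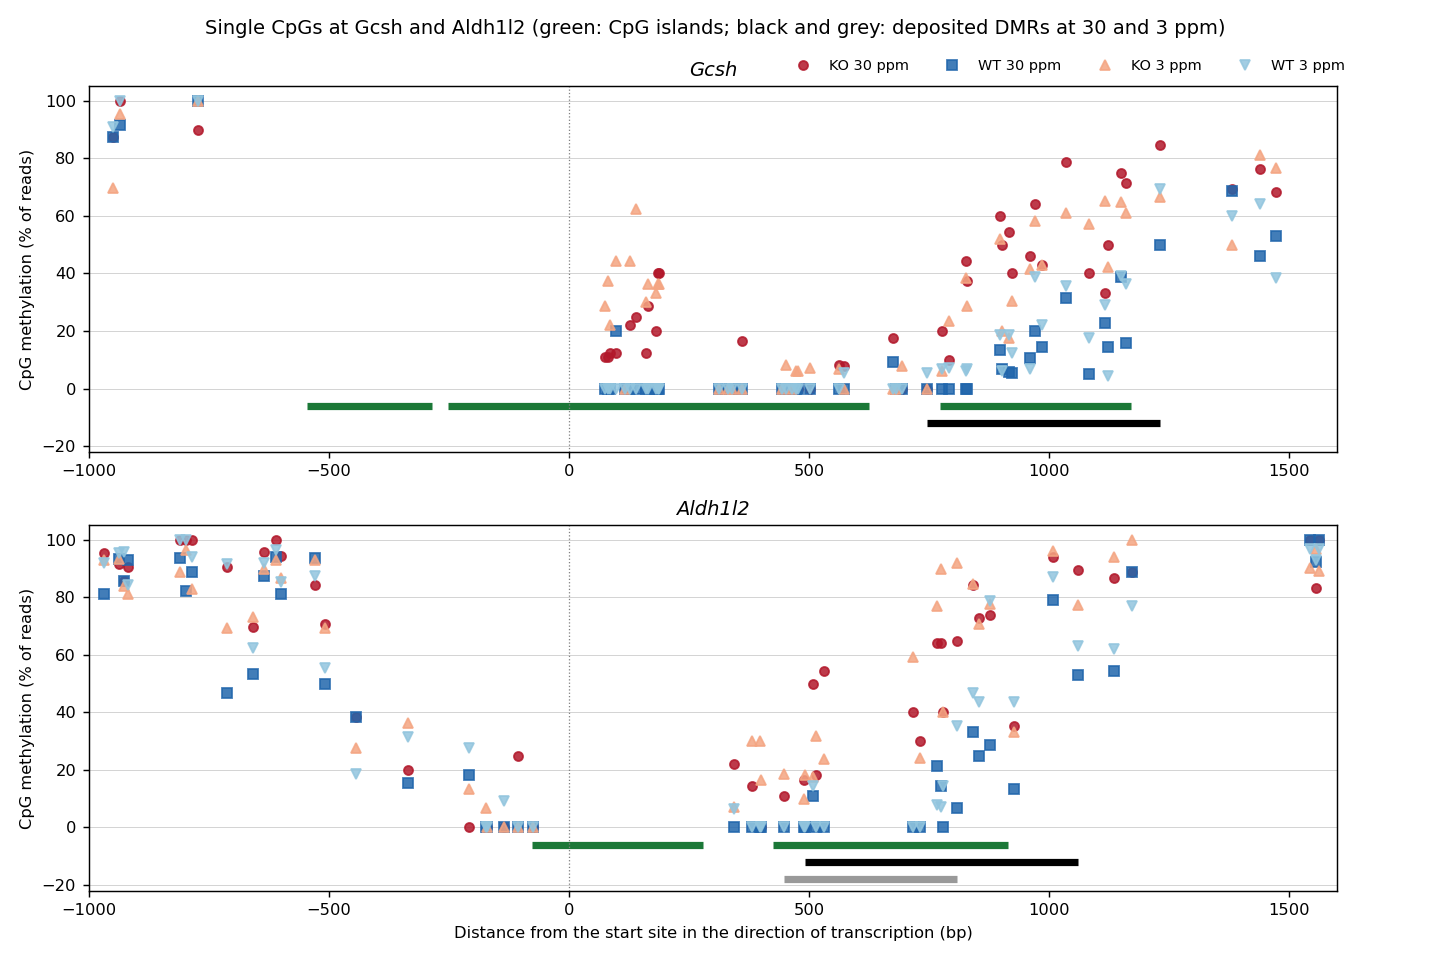
Single CpG methylation (y axis, % of reads) at Gcsh and Aldh1l2 against distance from the start site in the direction of transcription (x axis, bp) in the 4 libraries, with green bars for CpG islands and black and grey bars for regions the authors listed as hypermethylated in KO at 30 and 3 ppm. In the first 500 bp past the start, WT read 0 to 0.621% at Gcsh and 0 to 1.04% at Aldh1l2, below KO at 11 to 18.8% and 9.43 to 17.3%, and the levels of 0 allow up to 1.47% at Gcsh and 5.26% at Aldh1l2.

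The authors deposited lists of differentially methylated regions (DMRs) called between single libraries, and 3 of these regions lay within 3 kb of the 8 genes, at Gcsh and Aldh1l2. A region of the 8 lists read lay that close to 18.2% of all genes. Since they were called on these libraries, their levels are a description. The Gcsh region (chromosome 8, 116992306 to 116992792, 19 measured CpGs) came from the list of gains at 30 ppm, and read 47.8% in KO against 15.4% in WT at 30 ppm. In the 3 ppm pair, which took no part in that call, it read 41.2% in KO against 22.4% in WT. Aldh1l2 had one region from each diet, both in the first intron of its main transcript and overlapping each other. The 30 ppm region (chromosome 10, 83533079 to 83533648) read 60.9% in KO against 24.0% in WT at 30 ppm and 57.5% against 38.3% at 3 ppm, and the 3 ppm region (83533332 to 83533691) read 42.9% and 5.60% at 30 ppm and 44.5% against 8.40% at 3 ppm.

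In the flanks from 1 to 3 kb upstream of the start sites, no member of the 8 was called hypermethylated at either diet, beside 5.21% of all upstream flanks at 30 ppm and 4.56% at 3 ppm, and KO minus WT ranged from -3.14 to 3.54 points at 30 ppm and from -5.71 to 3.44 points at 3 ppm. All of these flanks were at 75.8% or more except that of Shmt2, at 8.57 to 12%. Most of the 11 measured CpGs of the Shmt2 flank lay between -2993 and -2517 bp, beside the 3′ end of the neighbouring gene Nxph4. Its CpG nearest the start, at -1779 bp, read 36.4 to 47.1%. Only 1 of the 8 upstream flanks, that of Gldc, had both KO libraries above both WT libraries. The share of all upstream flanks with this order was not computed. On the downstream side, 5 of the 8 flanks, those of Gldc, Gcsh, Shmt2, Mthfd2 and Aldh1l2, had both KO libraries above both WT libraries (45.7% of all genes). In the bin from 500 to 1000 bp past the principal start, 6 of the 8 genes had this order, all but Gldc and Mthfd1l, beside 49.7% of the 15755 genes with at least 2 CpGs there. Of the 500 bp bins within 3 kb of the start, this one held the most genes in this order. The other bins had it at 0 to 4 genes, of 4 to 8 measured, and their shares over all genes were not computed.

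Gene bodies were highly methylated, 82.2 to 94.2%, and changed little. No body reached the minimum of 10 points, which 3.07% of all bodies did in the KO direction at 30 ppm and 2.72% at 3 ppm. KO minus WT was positive for all 8 bodies at 30 ppm, between 1.41 points at Gldc and 6.63 points at Gcsh (adjusted p = 2.19e-07; 1.72 points and adjusted p = 0.199 with the body taken from 3 kb), and 7 of the 8 passed the test without the minimum, as did 44.6% of all bodies in the KO direction. At 3 ppm the range was -2.65 to 3.65 points, and 1 of the 8, Mthfd2, passed in the KO direction, beside 26.1% of all bodies. Gldc (-1.04 points, adjusted p = 0.0149) and Mthfd2l (-0.945 points, adjusted p = 0.0481) passed in the WT direction, which 3.96% of all bodies did. Both KO libraries lay above both WT libraries at 5 of the 8 bodies and at 55.7% of all. The median body difference of the 8 genes came to 1.93 points at 30 ppm and 0.639 at 3 ppm, beside 1.86 and 0.716 points over all bodies.

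By the Wald test, KO minus WT differed between the diets at 4 of the 8 bodies, Gldc, Gcsh, Mthfd2l and Mthfd1l, and at 15.1% of all bodies. In each of the 4 the larger value was at 30 ppm. The median KO minus WT of all bodies was also larger at 30 ppm (1.86 points) than at 3 ppm (0.716). Gldc, Mthfd2l and Mthfd1l had the most reads of the 8 bodies. No flank of the 8 genes passed the Wald test (0.156% of upstream and 0.906% of downstream flanks did). limma called no flank and no body of the 8 genes for genotype, beside 1.17% of upstream flanks, 4.18% of downstream flanks and 6.95% of bodies. The Shmt2 body came closest of these, with a log2 odds ratio of 0.646, a standard error of 0.161 and an adjusted p of 0.0506, and it passed under 4 of the alternative settings (adjusted p = 0.0106 to 0.0404).

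With the main settings, the diet comparisons called no promoter, flank or body of the 8 genes. At promoters, 30 minus 3 ppm ranged from -4.13 to 9.39 points in KO and from -9.86 to 9.05 points in WT, and no promoter was called in either genotype, as 1.2% of all promoters were in KO against 0.793% in WT. The largest in KO, at Mthfd1l (58.3% against 48.9%), had an adjusted p of 0.225 by Fisher's exact test. With all libraries thinned to the same mean coverage, the Mthfd1l difference in KO was 18.8 points and was called (adjusted p = 0.0109), and as a mean of CpG levels it was 3.57 points. No flank or body was called by diet either, beside 0.207% and 0.111% of upstream flanks, 0.401% and 0.731% of downstream flanks and 0.138% and 0.307% of bodies in KO and WT. Without the minimum, 1 body passed Fisher's exact test in KO, Gldc (1.27 points, adjusted p = 0.0179). In WT 2 passed, Gldc (-1.18 points, adjusted p = 0.0288) and Mthfd2l (-1.81 points, adjusted p = 0.000818). The shares of all bodies that passed in this way were not computed. In 7 of the 8 bodies the WT library was lower at 30 ppm than at 3 ppm, and in all 8 the KO library was higher, by 0.538 to 3.03 points. Over all bodies the median of 30 minus 3 ppm was 0.527 points in KO and -0.596 points in WT, and the whole libraries differed in the same directions.

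Tiles of 1 kb placed these differences along the genes. The 8 genes with 3 kb on each side held 484 of the 1863069 tiles tested, and 14 of them were called in at least 1 comparison. At 30 ppm 9 tiles were higher in KO and 1 lower, beside 1.13% and 0.0487% of all tiles. At 3 ppm 5 were higher and 2 lower, beside 1.1% and 0.113% of all tiles. Between the diets, 1 tile was higher and 1 lower at 30 ppm in KO (0.043% and 0.0253% of all tiles) and none differed in WT (0.00886% and 0.0381%). The median KO minus WT of the 484 tiles came to 1.69 points at 30 ppm and -0.307 at 3 ppm, beside 1.23 and -0.159 points over all tiles.

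**Figure D5:**
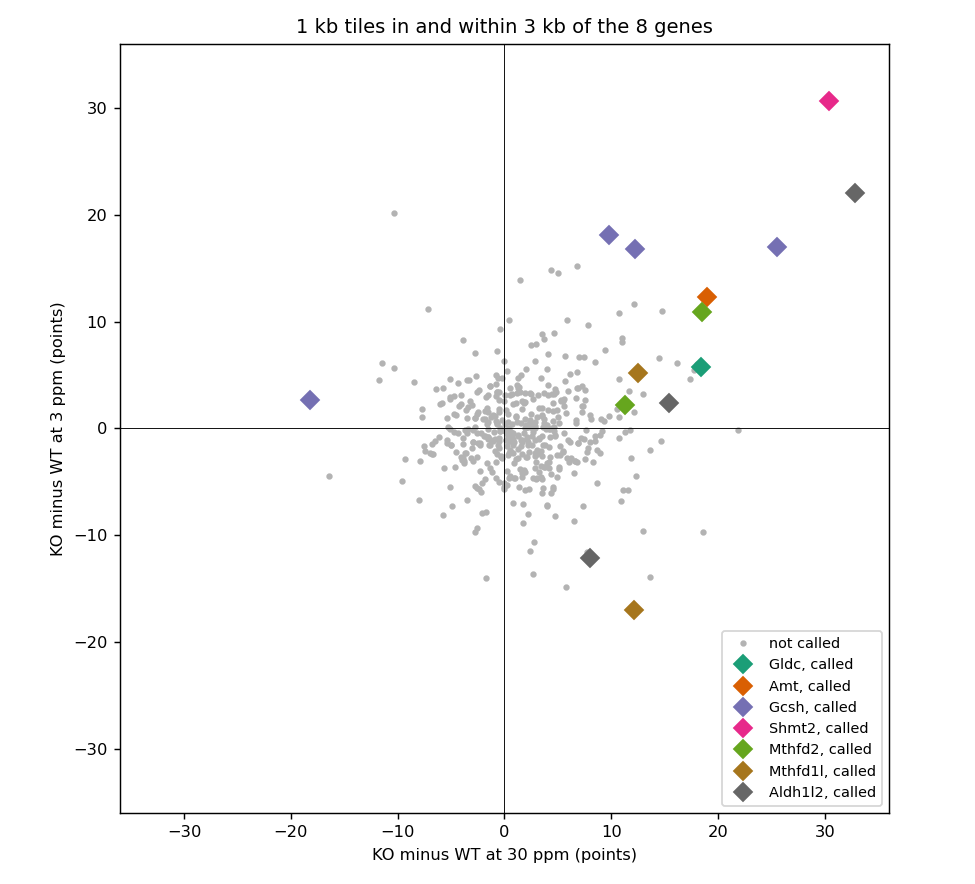
KO minus WT at 30 ppm (x axis, points) against KO minus WT at 3 ppm (y axis, points) for the 484 tiles of 1 kb in and within 3 kb of the 8 genes, with tiles called in any of the 4 comparisons as coloured diamonds. Most tiles gather around 0, 11 of the 14 called tiles lie above 0 on both axes, and the tiles of Aldh1l2, Gcsh and Shmt2 lie farthest out.

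The Aldh1l2 tile past the start (83533001 to 83534000, 23 CpGs) read 54.2% in KO against 21.4% in WT at 30 ppm (32.8 points, adjusted p = 2.54e-13) and 52.2% against 30.2% at 3 ppm (22.0 points, adjusted p = 1.82e-07). The tile that holds the start site (83534001 to 83535000) read 69.0% and 53.6% at 30 ppm (adjusted p = 0.0249) and 63.2% against 60.8% at 3 ppm, and its KO minus WT at 30 ppm as a mean of CpG levels was 8.06 points. A tile in an intron of Aldh1l2 (83530001 to 83531000, 9 CpGs) was lower in KO at 3 ppm, 79.6% against 91.8% (adjusted p = 0.0383), and read 91.2% in KO against 83.1% in WT at 30 ppm.

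The Shmt2 tile (127515001 to 127516000, 7 CpGs) lay beyond the 3′ end of the gene, just past the start of Ndufa4l2. It read 58.5% in KO against 28.0% in WT at 30 ppm (adjusted p = 0.0487), and 41.7% against 11% at 3 ppm (adjusted p = 0.000345), the one called tile with gains of over 30 points at both diets. Mthfd2 had a tile in its first intron (83316001 to 83317000, 21 CpGs) that read 39.9% and 21.4% at 30 ppm (adjusted p = 0.00131) and 34.4% against 23.5% at 3 ppm. Its second tile (83303001 to 83304000) was past its 3′ end, inside Slc4a5, and read 93.2% in KO against 81.9% in WT at 30 ppm (adjusted p = 0.00962) and 92.2% against 90.1% at 3 ppm (adjusted p = 0.892).

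Amt had 1 called tile, just past its start (108297001 to 108298000, 16 CpGs), with 82.0% in KO against 63.0% in WT at 30 ppm (adjusted p = 0.0124) and 81.8% against 69.5% at 3 ppm. Its gain as a mean of CpG levels came to 8.66 points at 30 ppm and 17.2 at 3 ppm. Gldc had 1 called tile of 83, far inside the gene (30115001 to 30116000, 19 CpGs, its centre 59928 bases past the start), with 77.8% and 59.4% at 30 ppm (adjusted p = 0.017) and 69.1% against 63.3% at 3 ppm. Mthfd1l had one of this kind 115370 bases past its start, 93.5% against 81.0% at 30 ppm (adjusted p = 0.0176) and 91.8% against 86.6% at 3 ppm. Mthfd2l had no called tile among 88.

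Past the 3′ end of Gcsh, beside the start of the neighbouring gene 1700030J22Rik, a tile (116979001 to 116980000, 25 CpGs) read 20.1% in KO against 38.3% in WT at 30 ppm, the single called loss at that diet, and 37.6% against 35.0% at 3 ppm. As means of CpG levels its 4 values were 22.2%, 24.3%, 25.9% and 24.1%, and its KO minus WT at 30 ppm was -2.15 points. The adjoining tile (116978001 to 116979000, 11 CpGs) was higher in KO. It read 45.3% in KO against 28.5% in WT at 3 ppm (adjusted p = 0.0202) and was called there. At 30 ppm it read 46.4% against 34.2% (adjusted p = 0.413).

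The tile before the start of Mthfd1l (3972001 to 3973000, 14 CpGs) was the one member tile higher at 30 than at 3 ppm in KO, 80.1% against 58.4% (adjusted p = 0.00101), and it was lower in KO than in WT at 3 ppm, 58.4% against 75.4% (adjusted p = 0.0126). Of its CpGs, 10 together read between 87.4% and 93.1%. The other 4, each under 50% in every library, read 16.7% in KO against 18.5% in WT at 30 ppm and 12.9% against 15.2% at 3 ppm, and they received 38.9% of the tile's reads in the 3 ppm KO library against 17.1 to 28.9% in the others. As means of CpG levels the tile read 71.6% and 68.9% at 30 ppm and 66.2% against 67.6% at 3 ppm.

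Genes around the pathway were compared at their promoters, in lists taken by function. Of 16 mitochondrial partners (folate and glycine carriers, lipoate and iron-sulfur proteins, and folate-linked oxidases), 2 were hypermethylated in KO at 30 ppm and 1 at 3 ppm, with medians of 4.63 and 1.04 points, while over all promoters 15.4% and 16.6% were. They were Lipt1, which attaches lipoate (24.3% in KO against 9.74% in WT at 30 ppm, adjusted p = 1.74e-05), Slc25a38, a mitochondrial glycine carrier (38.0% and 27.3% at 30 ppm, adjusted p = 0.00648), and Dmgdh, a dimethylglycine dehydrogenase (83.0% and 71.1% at 3 ppm, adjusted p = 0.00224), all by Fisher's exact test. None of them was called at the other diet. There KO minus WT was 0.570 points at Lipt1 and 1.12 at Slc25a38 (3 ppm), and 7.63 at Dmgdh (30 ppm). Of 12 cytosolic folate enzymes, 1 was hypermethylated in KO at 30 ppm. This was Shmt1, the cytosolic counterpart of Shmt2, which read 37.3% in KO against 23.7% in WT at 30 ppm (adjusted p = 0.013) and 37.8% against 22.3% at 3 ppm (adjusted p = 0.0001), so that it was hypermethylated at both diets.

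Of 6 genes of serine and glycine supply or use, 1 was hypermethylated at each diet. Slc6a9, a glycine transporter, read 75.0% in KO against 57.4% in WT at 30 ppm (adjusted p = 0.0296, Fisher's exact test), and Gnmt, a glycine methyltransferase, read 65.4% and 54.9% at 3 ppm (adjusted p = 0.0195). Neither was called at the other diet, where KO minus WT was 2.55 points at Slc6a9 (3 ppm) and -0.0833 at Gnmt (30 ppm). No promoter of the 3 lists was hypomethylated in KO or called by diet. By limma 2 of the 16 mitochondrial partners passed, Glrx5 and Nnt (both named after their values were seen), and none of the 12 or of the 6, beside 7.5% of all promoters. The medians of KO minus WT at 30 ppm, 4.63, 4.33 and 4.01 points, lay near the 3.93 points over all promoters.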

How the data were processed

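CpG methylation was read by whole-genome bisulfite sequencing in 4 embryonic brains, 1 per group. The authors trimmed reads with Trim Galore 0.6.10, aligned them with Bismark 0.23.1 to GRCm38.p6, removed duplicates and merged both strands of a CpG. Each deposited table lists, CpG by CpG, a methylated fraction and a read count, and their product is the methylated reads. Their positions are 0-based and were raised by 1. From the region lists that the authors called with DSS, 8 lists were read for positions only. The 4 lists that combine them were not used.

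Reads were summed over the CpGs that had 5 or more reads in every library, in regions with at least 3 such CpGs, for autosomal protein-coding genes of GENCODE vM21. Libraries were compared pairwise by two-sided Fisher's exact tests, adjusted by Benjamini-Hochberg over all genes or all 1 kb tiles. Intervals at 95% are Wilson for levels (scipy 1.17.1) and Newcombe for differences. Whether KO minus WT differed between diets was tested by a Wald test of log odds ratios (0.5 was added to every cell), and genotype over both diets by limma 3.58.1 (R 4.3.3) on log2 odds with 1 added, with diet as a term and 1 residual degree of freedom. A floor is 3 counts. Scripts were tested on simulated data. CpG islands are stretches of at least 200 bp with at least 50% GC and an observed to expected CpG ratio of at least 0.6. Sequences come from the GRCm38.p6 reference. Nnt has more than 1 gene record and the first was used.

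All 8 genes were named, with every called region and tile, and of the 3 lists the genes whose promoters were called. One result among the lists is not reported here. The members and lists were chosen with earlier results of these data known. Alternatives changed the coverage minimum, depth, window, start site, weighting of CpGs and minimum difference.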

Additional observations from a re-analysis of the deposited data

Results flagged for a closer look

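In 7 places KO minus WT differed between the diets by the Wald test of log odds ratios, adjusted over all regions of the kind. At the Aldh1l2 promoter it was 14.5 points higher at 30 ppm than at 3 ppm (adjusted p = 0.0191), while as means of CpG levels KO exceeded WT by 18.0 points under 30 ppm and by 12.2 under 3 ppm. In gene bodies it was higher at 30 ppm by 2.45 points at Gldc (adjusted p = 0.000176), 4.65 points at Gcsh (adjusted p = 0.0292), 2.42 points at Mthfd2l (adjusted p = 0.00101) and 1.15 points at Mthfd1l (adjusted p = 0.0173). Over all bodies the median KO minus WT was 1.86 points at 30 ppm and 0.716 at 3 ppm, and 15.1% passed the Wald test.

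The other 2 were tiles of 1 kb outside the genes. The tile past the 3′ end of Gcsh (116979001 to 116980000) differed by -20.9 points between the diets (adjusted p = 0.0464), and the tile before the start of Mthfd1l (3972001 to 3973000) by 29.1 points (adjusted p = 0.00993). As means of CpG levels, KO minus WT was -2.15 points under 30 ppm and 1.89 under 3 ppm in the Gcsh tile, and 2.69 and -1.38 points in the Mthfd1l tile. Each value rests on 4 libraries of different embryos, so diet and embryo cannot be told apart.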

How the results depend on the processing

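No paired analysis was possible because each group had 1 library, and no replicate could be left out. Of the recomputed counts of called regions, 167 stayed within 1.5 times the main count and 25 did not. Many main counts were 0, and a count that stayed at 0 is among the 167, so this tally says little about stability. No named result changed sign while called. With at least 10 reads per CpG, 1 promoter (main 3) was called in KO minus WT at 3 ppm, 1 by diet in WT (Aldh1l2, -14.8 points; main 0), 0 by limma (main 1), 2 downstream flanks at 30 ppm (main 1), 1 body by limma (main 0), and of tiles 3 at 30 ppm (main 10), 3 at 3 ppm (main 7) and 0 by diet in KO (main 2). With no coverage minimum, 3 downstream flanks were called at 30 ppm. With libraries thinned to the same mean coverage, 1 promoter was called by diet in KO, 2 bodies by the Wald test (main 4), 1 body by limma, 4 tiles at 3 ppm and 1 tile by diet in KO. With a promoter of 2.5 kb on each side, 1 promoter was called at 3 ppm and 3 by limma. With the principal start, 1 downstream flank was called at 3 ppm (main 0) and 1 body by limma. With bodies from 3 kb, 1 body was called at 30 ppm (Shmt2) and 1 by limma. With the mean of CpG levels, 1 downstream flank was called at 3 ppm. With a minimum of 5 points, 1 downstream flank was called at 3 ppm and 2 bodies at 30 ppm. With tiles shifted by 500 bp, 0 were called by diet in KO and 1 in WT. The causes were not tested. The promoters of Mthfd2l, Mthfd2, Mthfd1l and Gldc were the least measured of the 8, with at most 23.8% of their CpGs passing the coverage minimum.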
